A study of Danio rerio with 24 samples.

Results

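Forkhead (Fox) genes encode transcription factors that share a winged-helix DNA-binding domain, and their names carry a letter for the subfamily. Some act as early regulators of germ layers (FoxA in endoderm and axial mesoderm, FoxD in neural ectoderm and neural crest), some in the cell cycle (FoxM) and some downstream of insulin and Akt signaling, which keeps FoxO proteins out of the nucleus. In zebrafish the first hours run on mRNA laid down in the egg, and the maternal-to-zygotic transition (MZT) clears part of this mRNA while the embryo's own genes switch on.

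The members described here are the Fox genes that the array annotation names with a single symbol, except foxi1, foxb1a, foxb1b and foxh1. They number 56 of 19260 genes with a single symbol, and cover 58 transcript clusters (the array's unit of a gene), since foxo1a and foxn4 have 2 clusters each. Each gene was represented by its cluster with the highest mean signal. All 56 were found by gene ID in the RefSeq gene list, and foxa was not among them.

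Wildtype 5D zebrafish embryos were kept from 0.75 hours post-fertilization (hpf) in 2 µM TDCIPP, tris(1,3-dichloro-2-propyl) phosphate, an organophosphate flame retardant, or in 0.1% DMSO, the vehicle. The groups were TDCIPP at 6 hpf, DMSO at 6 hpf, TDCIPP at 2 hpf and DMSO at 2 hpf, each with 3 pools of 25 whole embryos, and the RNA of each pool was hybridized to 2 arrays, which were averaged. Embryos were pooled and no tissue was separated, so fewer cells of a type and less RNA per cell cannot be told apart, and p-values measure the spread between pools. Values are log2 RMA signals, in which 1 unit is a 2-fold difference, and signals of different genes come from different probes and were not compared as amounts.

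Stage markers were checked first. In DMSO embryos all 10 gastrula genes (such as tbxta and noto) were called higher at 6 hpf, 6 of 7 measured maternal or oocyte genes were called lower, and none of 5 genes of tissues not yet formed was called. Array medians were 4.472 to 4.543 at 6 hpf and 4.323 to 4.461 at 2 hpf. RMA gives all arrays a like distribution of signals, so every change is relative to the other transcripts, and a change in total mRNA per embryo between the stages cannot be read from it.

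Between 2 and 6 hpf the DMSO embryos showed 9 Fox genes that rose, 14 that fell and 33 that did not pass the test (limma, Benjamini-Hochberg adjusted p under 0.1 over 61240 clusters). The members called higher were 16.1% of the 56, against a background of 20.0% of all clusters and 16.1% of genes with a symbol. The members called lower were 25% of the 56, against 19.9% of all clusters and 33.0% of genes with a symbol. In the signals as deposited, the share called higher equalled that of genes with a symbol and the share called lower lay below it. The rule leaves out foxi1, foxb1a, foxb1b and foxh1, all called higher, so the equality holds for the 56 members alone. These shares were not tested against each other, and rescaling the pools gave more falls among members (see the closing section). The median change was -0.031, against -0.087 over all 19260 genes. The calls fell by subfamily as follows. FoxA (2 of 3), FoxD (2 of 5) and FoxC (1 of 2) had genes that rose and none that fell, while FoxK (3 of 3), FoxP (3 of 5), FoxN (2 of 5), FoxM (1 of 1) and FoxR (1 of 1) had genes that fell and none that rose. FoxO (2 rose and 2 fell of 7) and FoxJ (1 rose and 2 fell of 4) had both, and foxl1 rose among 5 FoxL genes.

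**Figure D1:**
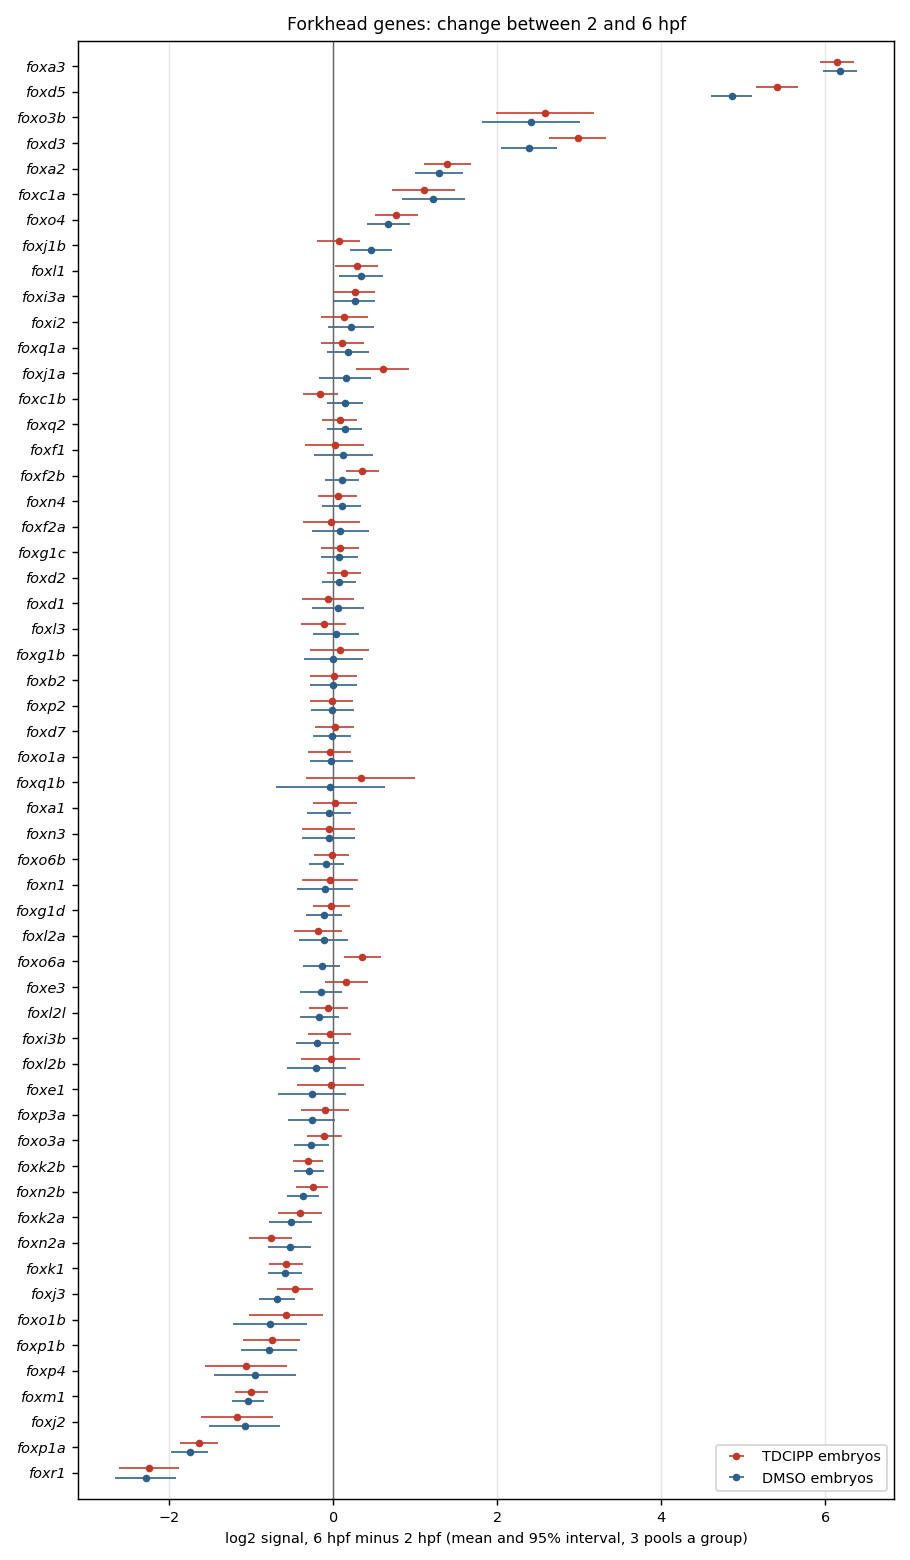
Change of each of the 56 Fox genes between 2 and 6 hpf, as log2 signal at 6 hpf minus 2 hpf on the x axis, with 1 row a gene. Points are means and bars 95% intervals of the limma fit (3 pools a group), for TDCIPP embryos (red, above) and DMSO embryos (blue, below). The DMSO changes span -2.29 (foxr1) to 6.18 (foxa3), and 33 genes lie near 0.

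The largest rises were those of foxa3 and foxd5, followed by foxo3b and foxd3. foxa3, a gene of axial mesendoderm and endoderm, had signals of 9.65, 9.79 and 9.49 in DMSO pools at 6 hpf, against 3.50, 3.38 and 3.50 at 2 hpf, a rise of 6.18 ± 0.10 (SE), or 72.6-fold (adjusted p = 9.09e-14). foxd5, which keeps neural ectoderm immature in Xenopus, had 9.86, 9.87 and 9.60 at 6 hpf, against 5.05, 4.91 and 4.80 at 2 hpf, a rise of 4.86 ± 0.12 (adjusted p = 1.76e-12). foxd3, later a neural crest regulator, had 6.34, 6.77 and 6.52 at 6 hpf, against 4.11, 4.14 and 4.21 at 2 hpf, a rise of 2.39 ± 0.16 (adjusted p = 3.99e-08). In these 3 genes every pool of 6 hpf lay more than 2 units above every pool of 2 hpf, and at 2 hpf foxa3 and foxd3 lay below the lowest array median.

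foxa2, which acts with foxa3 in endoderm and floor plate, had 6.49, 6.96 and 6.55 at 6 hpf, against 5.46, 5.32 and 5.36 at 2 hpf, a rise of 1.29 ± 0.13 (adjusted p = 3.07e-06). The third FoxA gene, foxa1, had 4.69, 4.39 and 4.95 at 6 hpf, against 4.67, 4.83 and 4.66 at 2 hpf, and its pools overlapped (change -0.048, 95% interval -0.32 to 0.22, adjusted p = 0.824). foxc1a, a gene of the paraxial mesoderm that forms somites, had 5.76, 5.72 and 4.96 at 6 hpf, against 4.15, 4.26 and 4.36 at 2 hpf, a rise of 1.22 ± 0.18 (adjusted p = 8.11e-05). The third DMSO pool of 6 hpf was lower in foxc1a than the other 2 by more than 0.7, but still above every pool of 2 hpf. Its paralog foxc1b had 4.51, 4.25 and 4.33 at 6 hpf, against 4.15, 4.30 and 4.22 at 2 hpf (change 0.14, interval -0.074 to 0.36, adjusted p = 0.325), and these pools overlapped.

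Some of these genes lie beside one another in the RefSeq order of coding genes. foxc1a is followed, after 1 other gene, by foxf2a and then foxq1a, and a second group holds foxq1b, foxf2b and foxc1b side by side. Of these 6 genes only foxc1a was called in DMSO embryos. foxe3 and foxd2, also neighbours, were not called either.

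The FoxO genes went both ways. foxo3b had 6.56, 8.06 and 7.24 in DMSO pools at 6 hpf, against 4.74, 4.91 and 4.97 at 2 hpf, a rise of 2.41 ± 0.28 (adjusted p = 8.50e-06), and its 3 pools of 6 hpf were the most scattered of any member in that group (SD 0.76). foxo4 had 6.84, 6.83 and 6.80 at 6 hpf, against 6.17, 5.96 and 6.34 at 2 hpf, a rise of 0.67 ± 0.12 (adjusted p = 5.43e-04). foxo1b had 6.27, 5.55 and 5.69 at 6 hpf, against 6.41, 6.87 and 6.55 at 2 hpf, a fall (change -0.77 ± 0.21, adjusted p = 9.86e-03). The groups did not overlap in these 3 genes. foxo3a, the paralog of foxo3b, fell by 0.27 (adjusted p = 0.0518), while foxo1a, foxo6a and foxo6b were not called. The difference between the paralogs was not tested, since their probes differ.

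The last 2 rises were small. foxj1b, one of 2 zebrafish paralogs of the motile cilia regulator Foxj1, had 3.24, 3.12 and 3.27 at 6 hpf, against 2.68, 2.60 and 2.97 at 2 hpf (change 0.46 ± 0.12, adjusted p = 8.68e-03), and lay below the median signal of all clusters in all 12 pools. With array 2 of each pool alone the change was 0.25 and the call was lost (adjusted p = 0.269). The other paralog, foxj1a, was not called in DMSO embryos (change 0.15, interval -0.17 to 0.46, adjusted p = 0.514). foxl1 rose by 0.34 ± 0.12 (adjusted p = 0.0512), with 4.78, 4.84 and 4.72 at 6 hpf, against 4.46, 4.69 and 4.18 at 2 hpf.

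**Figure D2:**
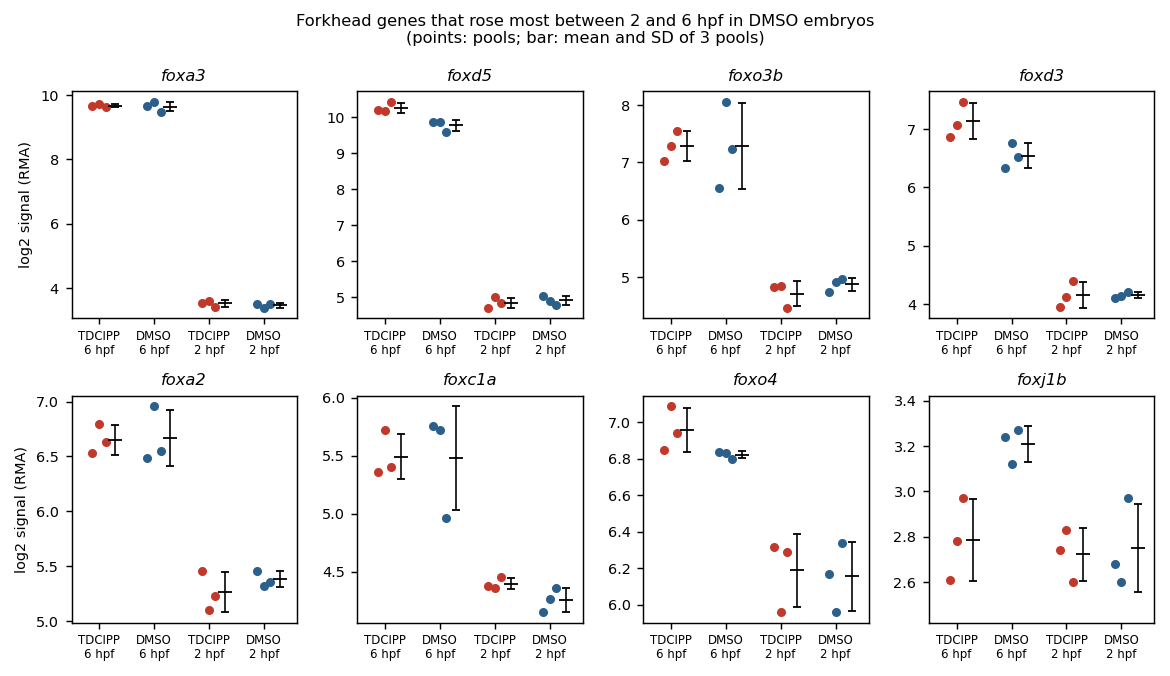
Log2 RMA signal (y axis, a scale of its own in each panel, not starting at 0) of the 8 Fox genes that rose most in DMSO embryos, in the 4 groups (x axis). Points are pools, red for TDCIPP and blue for DMSO, and bars the mean and SD of 3 pools. foxa3 and foxd5 stand more than 4 units higher at 6 hpf than at 2 hpf, and the DMSO pools of foxo3b at 6 hpf are spread over 6.56 to 8.06.

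All 14 genes that fell had signals above the median of all clusters in each of the 12 pools, as had 30 of all 56 members. A low signal leaves little room for a fall, so no conclusion is drawn from this. foxr1, a maternally supplied gene of the zebrafish egg, had 5.15, 4.84 and 5.43 in DMSO pools at 6 hpf, against 7.44, 7.67 and 7.18 at 2 hpf, a fall (change -2.29 ± 0.17, adjusted p = 1.14e-07). foxm1, which drives genes of mitosis, had 8.74, 8.87 and 8.95 at 6 hpf, against 9.85, 9.97 and 9.85 at 2 hpf (change -1.04 ± 0.09, adjusted p = 6.10e-07). In both genes the lowest pool of 2 hpf stood well above the highest of 6 hpf.

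The FoxP genes are repressors known from brain, heart and immune cells of mammals. foxp1a had 6.73, 6.79 and 6.61 at 6 hpf, against 8.39, 8.55 and 8.45 at 2 hpf, the second largest fall (change -1.75 ± 0.11, adjusted p = 1.29e-08). foxp1b had 6.29, 5.90 and 6.44 at 6 hpf, against 6.80, 7.31 and 6.87 at 2 hpf (change -0.78 ± 0.16, adjusted p = 1.34e-03). foxp4 had 4.99, 5.09 and 5.10 at 6 hpf, against 6.40, 6.01 and 5.65 at 2 hpf (change -0.96 ± 0.23, adjusted p = 4.95e-03). None of the 3 overlapped between the stages. foxp2 was not called, with 6.47, 6.45 and 6.58 at 6 hpf, against 6.34, 6.49 and 6.71 at 2 hpf (change -0.013, interval -0.27 to 0.25), as did the dim foxp3a, whose mammalian counterpart marks regulatory T cells.

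foxj2 had 5.77, 5.96 and 5.95 at 6 hpf, against 7.11, 6.60 and 7.21 at 2 hpf (change -1.08 ± 0.20, adjusted p = 6.62e-04). foxj3 had 8.17, 8.01 and 8.11 at 6 hpf, against 8.86, 8.77 and 8.72 at 2 hpf (change -0.69 ± 0.10, adjusted p = 9.27e-05). Both fell without overlap, whereas foxj1b of the same subfamily rose. The other 5 falls, in foxk1, foxk2a and foxk2b (the FoxK genes act in metabolism and autophagy in mammals) and in foxn2a and foxn2b, were between -0.30 (foxk2b) and -0.59 (foxk1). foxk2b had 10.25, 10.06 and 10.24 at 6 hpf, against 10.47, 10.52 and 10.45 at 2 hpf.

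**Figure D3:**
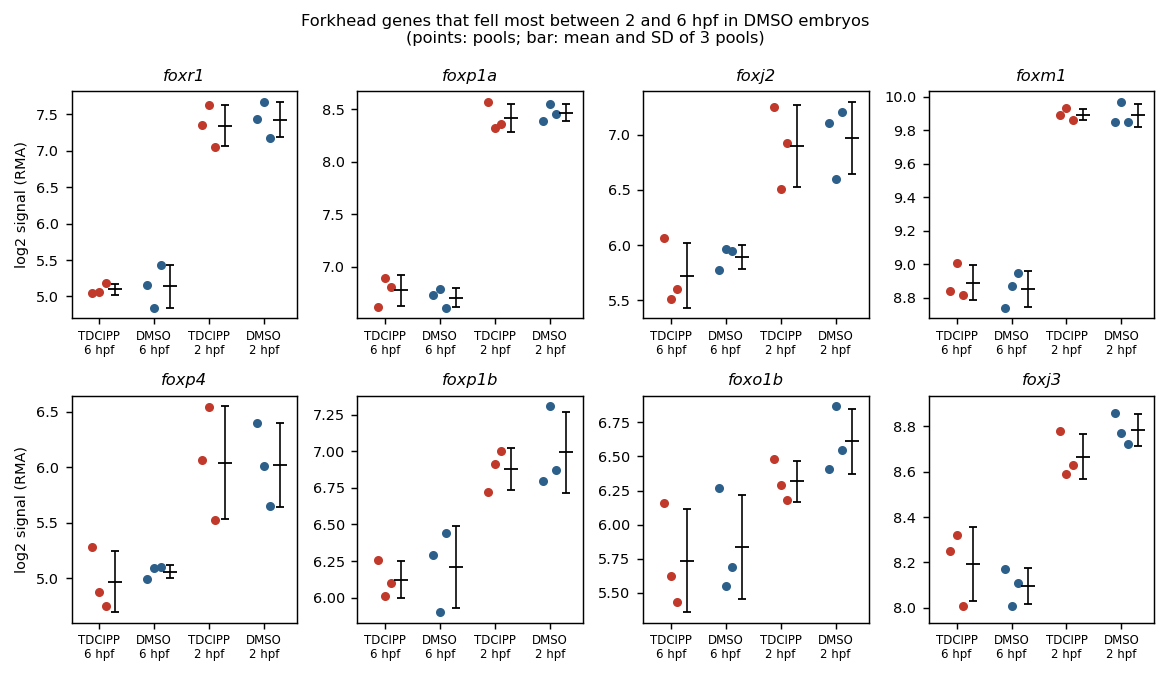
Log2 RMA signal (y axis, a scale of its own in each panel, not starting at 0) of the 8 Fox genes that fell most in DMSO embryos, in the 4 groups (x axis). Points are pools, red for TDCIPP and blue for DMSO, and bars the mean and SD of 3 pools. At both treatments foxr1, foxp1a and foxm1 lie lower at 6 hpf than at 2 hpf in every pool.

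The 33 genes not called had changes from -0.26 (foxe1 and foxp3a) to 0.26 (foxi3a). Of them, 13 lay below the median of all clusters in all 12 pools. Another 12 lay above it in all 12 pools, foxe3, foxg1c and foxg1d among them. Among genes of tissues not yet formed, hbae1.1 (DMSO means 5.66 at 6 hpf and 5.83 at 2 hpf) and ins (4.86 and 4.86) lay above the array medians too. The other genes of that list, mylpfa, neurod1 and cryaa, lay below them. A signal above the median is thus by itself no sign of a transcript. Named for their known roles alone, foxe3 (lens), foxg1b, foxg1c and foxg1d (forebrain), foxn1 (thymus), foxi3a and foxi3b (ionocytes) and foxl2a and foxl2b (ovary) were among the 33. Low signals without a detection call do not tell an absent transcript from a dim probe. foxq1b was the least precise, with 6.43, 6.37 and 6.37 at 6 hpf, against 6.67, 6.95 and 5.67 at 2 hpf (change -0.037, interval -0.70 to 0.63).

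TDCIPP embryos showed 11 rises (19.6% of the 56 members) and 13 falls (23.2%) between 2 and 6 hpf, against a background of 20.7% of all clusters higher and 19.5% lower. The share of genes with a symbol is not given for TDCIPP embryos. In DMSO embryos it was 33.0% for falls, against 19.9% of all clusters, so the cluster background is no close match. Of the members called in TDCIPP embryos, 8 rises and 13 falls were called in DMSO embryos too. The 5 differing calls were foxf2b (change 0.35 in TDCIPP embryos and 0.11 in DMSO embryos), foxj1a (0.60 and 0.15) and foxo6a (0.35 and -0.14), called higher in TDCIPP embryos alone, and foxj1b (0.065 and 0.46) and foxo3a (-0.11 and -0.27), called in DMSO embryos alone. The difference between the treatments was tested for each, as the 6 hpf effect of TDCIPP minus its 2 hpf effect, and none passed (adjusted p = 1 for each), so these differing calls are not shown to differ.

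The pathways around the family were counted in the same way, against the background of 16.1% of genes with a symbol called higher and 33.0% called lower, with a median of -0.087. Among 19 measured genes of the MuvB complex and the FoxM1 mitotic program, 12 were called lower and 1 (cdc25b, a phosphatase that opens mitosis) higher in DMSO embryos, with a median change of -0.76. Of these, aurkb, the kinase of chromosome segregation, had a change of -1.34 and plk1 one of -1.23, while kif20a (0.052), bub1 (0.038) and mybl2b (-0.11) were not called. Upstream of FoxO, 8 of 14 measured genes of insulin, PI3K and Akt signaling were called lower and none higher, with a median of -0.33. The insulin receptor genes insra and insrb had changes of -1.71 and -1.31. Genes known as FoxO targets in mammals were split (6 higher and 5 lower of 15), with rises in sesn3 (5.13) and gadd45ba (3.34), both stress response genes, and falls in cat (-1.61) and sod2 (-1.17), antioxidant enzymes. The motile cilia genes downstream of Foxj1 had 2 called higher and 3 lower of 11, close to the background. Of 12 axial mesendoderm and endoderm genes, 10 were called higher and none lower, with a median of 4.14, and shha and shhb (0.26 and 0.045) were not called.

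At 6 hpf no Fox gene passed the test between TDCIPP and DMSO embryos, nor did any of the 61240 clusters (0%), and the smallest adjusted p among members was 0.724. The TDCIPP mean was higher in 34 members and lower in 22, with a median difference of 0.02, against 0.017 over all genes, and 48 of 56 differences were under 0.2 in size. An equal-variance test per cluster, the kind the study's methods name, called no member either. It ran here on pool means, whereas the methods describe input from the single arrays. The study itself reports transcripts affected at 6 hpf at an FDR p under 0.1, among them foxb1a and chd (chrd here). The reason for this difference was not tested. At an unadjusted p under 0.05 there were 5 members (8.93%), against 5.48% of all clusters. Pools did not overlap in 7 members (12.5%), against 11.0% of all clusters. Both shares were near the background.

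**Figure D4:**
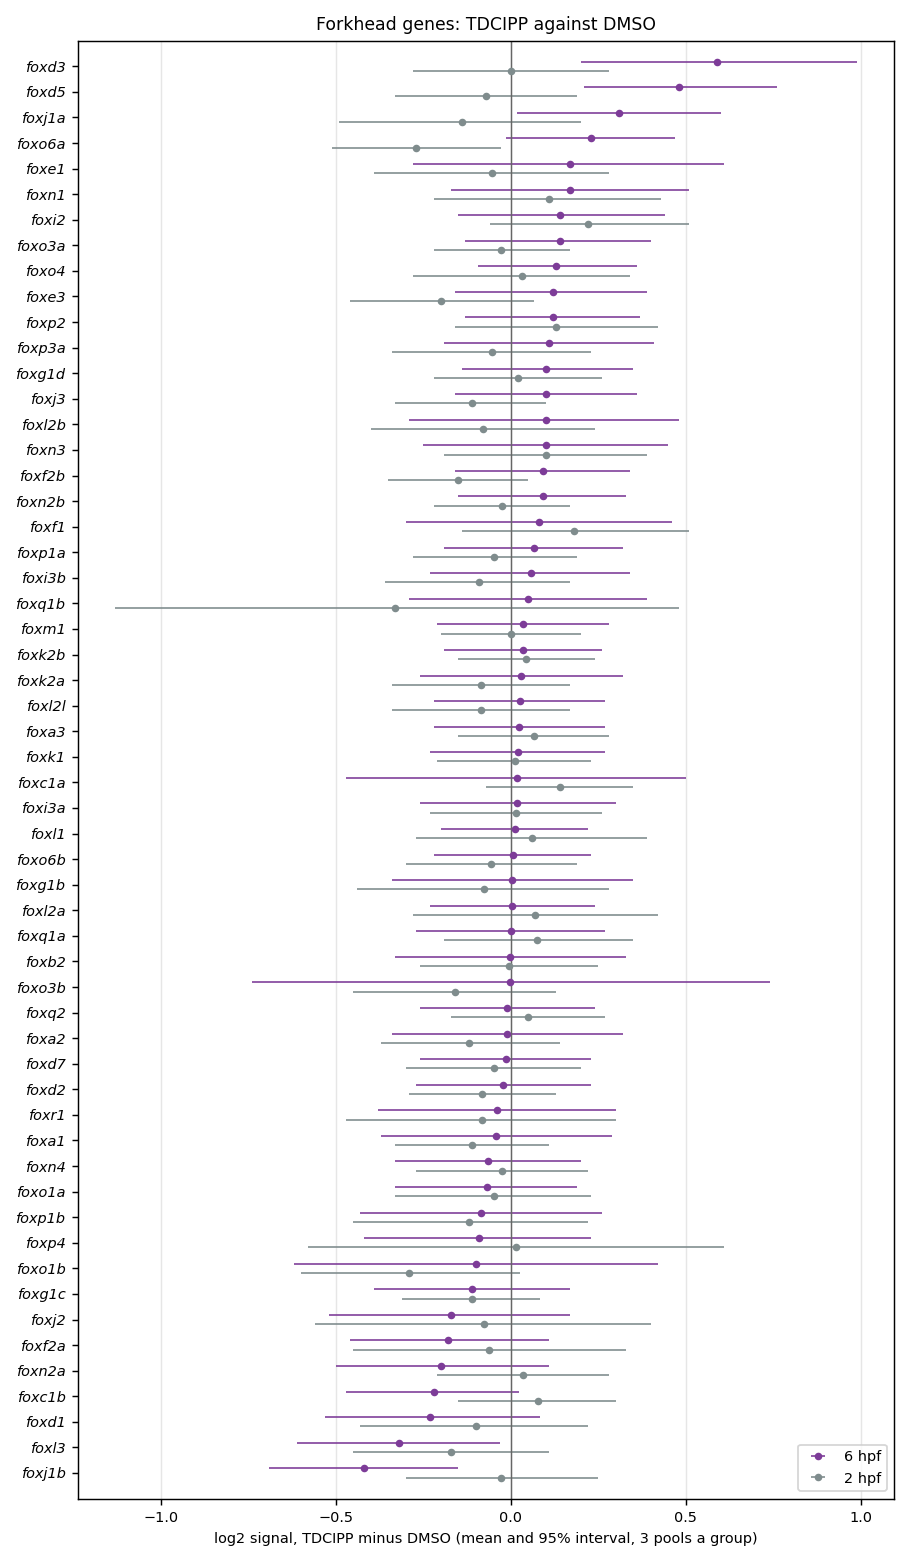
Difference between TDCIPP and DMSO embryos in each of the 56 Fox genes, as log2 signal, TDCIPP minus DMSO, on the x axis, with 1 row a gene. Points are means and bars 95% intervals of the limma fit (3 pools a group), at 6 hpf (purple, above) and 2 hpf (grey, below). At 6 hpf the differences span -0.42 (foxj1b) to 0.59 (foxd3), and none passes the adjusted threshold at either time.

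Both FoxD genes that rose across the MZT had higher signals in TDCIPP pools at 6 hpf. foxd5 had 10.19, 10.17 and 10.43 in TDCIPP pools, against 9.86, 9.87 and 9.60 in DMSO pools, a difference of 0.48 (interval 0.21 to 0.76, adjusted p = 0.724). foxd3 had 6.86, 7.07 and 7.47 in TDCIPP pools, against 6.34, 6.77 and 6.52 in DMSO pools, a difference of 0.59 (interval 0.20 to 0.99, adjusted p = 0.781). Neither overlapped between the treatments, and neither passed the test. foxd1, a FoxD gene of the mouse kidney stroma, overlapped at 5.09, 4.66 and 4.76 in TDCIPP pools, against 4.91, 5.18 and 5.10 in DMSO pools (difference -0.23, interval -0.53 to 0.083, adjusted p = 0.947), and its difference was -0.35 without TDCIPP pool 1 and -0.14 without TDCIPP pool 2.

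The paralogs foxj1a and foxj1b had differences of opposite sign. foxj1b had 2.61, 2.78 and 2.97 in TDCIPP pools, against 3.24, 3.12 and 3.27 in DMSO pools (difference -0.42, interval -0.69 to -0.15, adjusted p = 0.768), and the difference was -0.75 with array 1 of each pool alone and -0.095 with array 2 alone. foxj1a had 4.53, 4.26 and 4.19 in TDCIPP pools, against 4.05, 4.14 and 3.85 in DMSO pools (difference 0.31, interval 0.018 to 0.60, adjusted p = 0.899). Neither overlapped, and both had low signals. Among the cilia genes, rfx2, a transcription factor acting beside Foxj1, had a difference of 0.42 (adjusted p = 0.829), dnai1.2 one of -0.22 (adjusted p = 0.913) and efhc2 one of 0.16 (adjusted p = 0.942), and none of 11 was called.

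foxo6a, whose mouse counterpart acts in the hippocampus, had 5.78, 5.64 and 5.71 in TDCIPP pools, against 5.48, 5.35 and 5.61 in DMSO pools (difference 0.23, interval -0.013 to 0.47, adjusted p = 0.913), with 0.46 from array 1 alone and -0.0079 from array 2 alone. foxc1b had 4.14, 4.06 and 4.21 in TDCIPP pools, against 4.51, 4.25 and 4.33 in DMSO pools (difference -0.22, interval -0.47 to 0.024, adjusted p = 0.928). foxl3, a germline sex gene of medaka, had 3.10, 3.23 and 3.37 in TDCIPP pools, against 3.73, 3.57 and 3.36 in DMSO pools (difference -0.32, interval -0.61 to -0.03, adjusted p = 0.888). The pools of foxo6a and foxc1b were apart by only 0.03 and 0.04, and those of foxl3 overlapped. foxo4 completes the 7 genes without overlap (difference 0.13, interval -0.095 to 0.36).

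**Figure D5:**
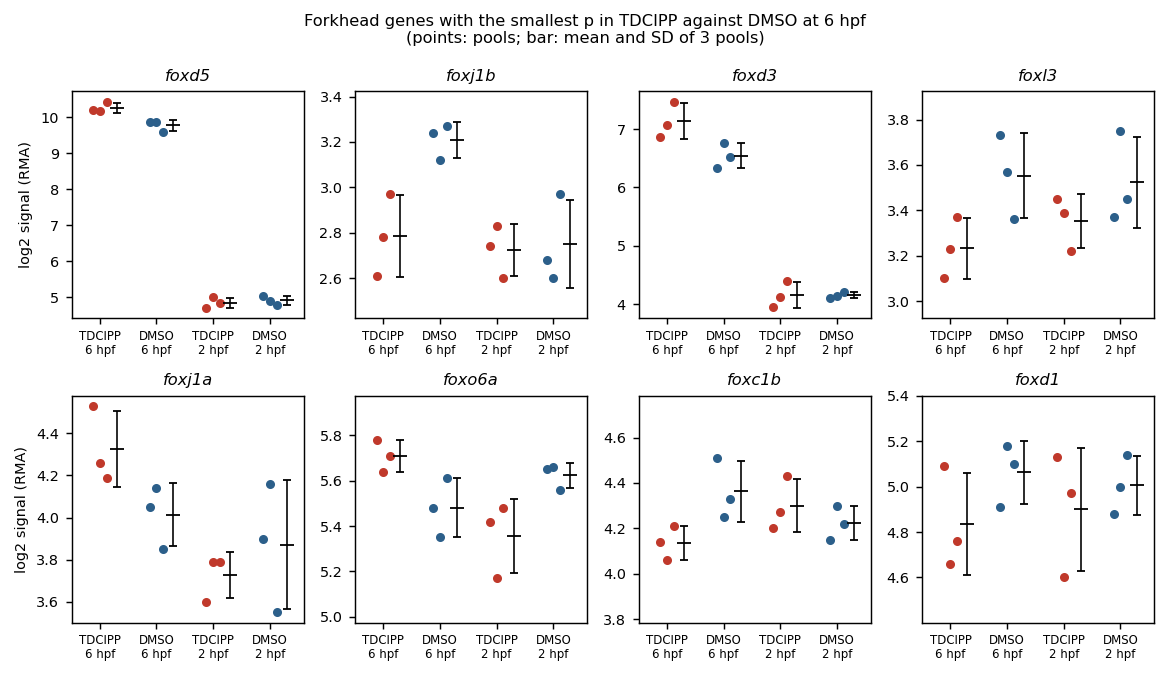
Log2 RMA signal (y axis, a scale of its own in each panel, not starting at 0) of the 8 Fox genes with the smallest unadjusted p between TDCIPP and DMSO at 6 hpf, in the 4 groups (x axis). Points are pools, red for TDCIPP and blue for DMSO, and bars the mean and SD of 3 pools. The 6 hpf pools of foxd5, foxd3 and foxj1a lie higher under TDCIPP and those of foxj1b lower, and no gene passes the adjusted threshold.

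The FoxA genes, foxc1a, foxm1, foxr1 and foxo3b had mean differences near 0 at 6 hpf. foxa3 had 9.65, 9.72 and 9.63 in TDCIPP pools (DMSO values above), a difference of 0.024 (interval -0.22 to 0.27), and foxa2 had 6.53, 6.80 and 6.63, a difference of -0.012 (interval -0.34 to 0.32). foxa1 differed by -0.042 (interval -0.37 to 0.29) and foxc1a, with 5.36, 5.72 and 5.40 in TDCIPP pools, by 0.019 (interval -0.47 to 0.50). foxm1, with 8.84, 9.01 and 8.82 in TDCIPP pools, differed by 0.036 (interval -0.21 to 0.28), and foxr1, with 5.05, 5.06 and 5.18, by -0.04 (interval -0.38 to 0.30). In all of these the pools overlapped. foxc1a was imprecise, with -0.24 without DMSO pool 3 and 0.16 without DMSO pool 1. foxo3b was the least precise of these genes. Its 3 TDCIPP pools had 7.02, 7.28 and 7.55, inside the DMSO range, with an interval of -0.74 to 0.74, and the difference was 0.39 without DMSO pool 2 and -0.37 without DMSO pool 1.

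The genes around the family were not called at 6 hpf either. Among FoxO targets, ccng2, a cell cycle inhibitor, differed by 0.66 (adjusted p = 0.666), bcl6aa, a repressor, by 0.49 (adjusted p = 0.768) and fbxo32, a ubiquitin ligase gene, by 0.26 (adjusted p = 0.892), each without overlap. They were named for the smallest p in their list, and pools did not overlap in 11.0% of all clusters. The list's median was 0.10, against 0.017 over all genes, with 11 of 15 means higher. Upstream, pik3ca, the PI3K catalytic subunit, differed by -0.43 (adjusted p = 0.849), pik3r1 by -0.23 (adjusted p = 0.913) and pdpk1a by -0.21 (adjusted p = 0.951). In the mitotic list birc5b differed by 0.16, cdc25b by -0.10 and lin9 by 0.11 (adjusted p = 0.957, 0.967 and 0.971). Beside the FoxA genes, chrd, the BMP antagonist of the dorsal organizer, differed by 0.65 (adjusted p = 0.570), her5 by -0.56 (adjusted p = 0.784) and shha by -0.34 (adjusted p = 0.927). At 2 hpf her5 differed by -0.40 without overlap and was not called. Its signals there were 3.27, 3.13 and 3.28 in TDCIPP pools, against 3.51, 3.98 and 3.40 in DMSO pools. All lay below the lowest array median of 2 hpf (4.323), and pools did not overlap in 7.39% of all clusters at that time. The 2 hpf differences of chrd and shha were -0.016 and 0.015.

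Markers of stage and of other cell types were set beside these values. The mean signal of the 10 gastrula genes was 8.98 to 9.15 in TDCIPP pools, against 8.89 to 9.44 in DMSO pools at 6 hpf. This mean hides differences of both signs, with 4 gene means higher under TDCIPP, 6 lower and none called. Without overlap, vox (-0.33) and tbx16 (-0.26) were lower, and gsc (0.24) and noto (0.15) were higher. The largest difference was that of eve1 (-0.85). Its pools overlapped through DMSO pool 3 (8.09, 8.46 and 6.82 in DMSO pools, against 6.76, 7.22 and 6.83). DMSO pool 3 was the lowest DMSO pool of 6 hpf in the other gastrula genes too. The mean signal of 7 maternal genes was 7.75 to 8.01, against 7.57 to 7.92. That of 6 enveloping layer genes was 9.22 to 9.53, against 9.05 to 9.24, with all 6 means higher and none called (grhl3 0.51, adjusted p = 0.732). Primordial germ cell genes (4) had 7.52 to 7.72, against 7.44 to 7.73, and yolk syncytial layer genes (4) 8.65 to 8.91, against 8.52 to 8.95. The part of these markers in the Fox values was not tested.

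At 2 hpf, before most zygotic transcription, no Fox gene and no cluster (0%) was called, and the adjusted p of every member rounded to 1. The TDCIPP mean was higher in 21 members and lower in 35. The unadjusted p was under 0.05 for 1 member (1.79%), against 2.77% of all clusters, and pools did not overlap in 4 (7.14%), against 7.39%. foxo6a had 5.42, 5.17 and 5.48 in TDCIPP pools, against 5.65, 5.66 and 5.56 in DMSO pools (difference -0.27, interval -0.51 to -0.027). foxo1b had 6.48, 6.29 and 6.18 in TDCIPP pools, against 6.41, 6.87 and 6.55 in DMSO pools (difference -0.29, interval -0.60 to 0.025), or -0.16 without DMSO pool 2. foxi2 differed by 0.22 (interval -0.058 to 0.51), or 0.35 without DMSO pool 2, and foxf2b, a gene of mesenchyme, by -0.15 (interval -0.35 to 0.049). The foxo6a and foxf2b pools did not overlap, nor did those of foxg1c (lower) and foxc1a (higher), while those of foxo1b and foxi2 did.

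The difference of the TDCIPP effects between 6 and 2 hpf was called in no member and no cluster (0%), with an unadjusted p under 0.05 in 5 members (8.93%), against 4.32% of all clusters. foxo6a had the smallest p, with effects of 0.23 at 6 hpf and -0.27 at 2 hpf and a difference of 0.50 (interval 0.18 to 0.81). foxd5 had 0.48 and -0.07 (difference 0.55, interval 0.19 to 0.91), and foxd3 0.59 and 0.00048 (difference 0.59, interval 0.10 to 1.08). foxj1b had -0.42 and -0.028 (difference -0.39, interval -0.77 to -0.023). The adjusted p was 1 for all 4. The remaining member with an unadjusted p under 0.05 was foxj1a, with 0.31 and -0.14 (difference 0.45, interval 0.0017 to 0.90), and it was not called.

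Of the 4 Fox genes outside the rule, foxi1 had 10.22, 9.50 and 10.50 in TDCIPP pools, against 8.45, 8.97 and 8.79 in DMSO pools at 6 hpf (difference 1.33, adjusted p = 0.548), a larger difference than that of any of the 56 members. foxb1a had 8.68, 8.24 and 8.43 in TDCIPP pools, against 7.60, 7.64 and 7.21 in DMSO pools (difference 0.97, adjusted p = 0.424). This sign is that of the deposited signals and is opposite to the direction the study lists for foxb1a. The genes foxb1b and foxh1 differed by 0.0097 and -0.071. Between 2 and 6 hpf in DMSO embryos all 4 were called higher (foxi1 3.10, foxb1a 1.88, foxb1b 1.11 and foxh1 0.61). The counts of rises given for the 56 members thus leave them out.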

How the data were processed

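Per the labels and the study's methods, total RNA of each pool was amplified, labelled and hybridized to Zebrafish Gene 1.0 ST arrays (24 arrays, 12 pools), and the authors processed the scans with RMA (background correction, quantile normalization, probe summary) in Expression Console, with no version given in the sources used here. The deposited values are log2 signals for 75212 rows. The 13972 rows whose IDs precede the first annotated one carry no gene symbol and were not used, which left 61240 clusters. Of these, 20806 had 1 gene symbol (20323 with a gene ID in the RefSeq list), 855 had several and were not named, and 39579 had none. One cluster annotated to rpl5a and foxp2 was thus not used as a member.

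Both arrays of a pool hold the same RNA and were averaged, and the number of pools limits the precision. Within a time point TDCIPP and DMSO pools were compared with limma 3.58.1 in R 4.3.3 (lmFit, eBayes, two-sided). The change between times and the difference of effects came from a fit of all 12 pools. Benjamini-Hochberg adjustment ran over all clusters, with calls at 0.1, the methods' threshold, and 0.05 as an alternative. The fits were tested on simulated data.

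Members and lists were chosen with earlier results of these data known. Full statistics were given for the 8 members with the smallest p at 6 hpf, 4 at 2 hpf and 4 for the difference of effects, the 8 largest rises and 8 largest falls in DMSO embryos, fixed anchors (foxa1, foxa2, foxa3, foxc1a, foxc1b, foxd3, foxd5, foxj1a, foxm1, foxo3b and foxr1) and the 3 list genes with the smallest p at 6 hpf. foxl1, foxo3a, foxp2, foxq1b, foxk2b, foxo4 at 6 hpf and list genes named for the change between stages were chosen after their values were seen. Some list genes, among them cenpf, irs2b, akt1, akt3a, ptenb, gata6, hhex and h1m, were not analysed here. As alternatives, pools were blocked by replicate number, both arrays entered with the pool as random block, single arrays were used, eBayes ran with trend and robust options, 1 spread served the 4 groups or the pools of 1 treatment alone, and the methods' kind of test ran per cluster on pool means (the methods describe single arrays). Further alternatives rescaled pools by median or by quantiles, kept clusters of mean signal 5 or more, used all rows, averaged a gene's clusters, and left out each pool.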

Additional observations from a re-analysis of the deposited data

How the results depend on the processing

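The alternatives were read for the 56 members alone, not for foxi1, foxb1a, foxb1b and foxh1. By limma, and by the methods' kind of test on pool means, no member was called between TDCIPP and DMSO embryos under any alternative run. This held at 6 hpf, at 2 hpf and for the difference of effects. The smallest adjusted p reached was 0.12 (foxd5 with the pool as a random block), 0.983 and 0.494. Between the stages 7 of 9 rises in DMSO embryos kept their call in every alternative that tested them (not foxj1b and foxl1), as did 13 of 14 falls (not foxo3a). In TDCIPP embryos these were 8 of 11 (not foxf2b, foxl1 and foxo6a) and 11 of 13 (not foxn2b and foxo1b). Centring each pool on its median gave 8 rises and 20 falls in DMSO embryos (8 and 16 in TDCIPP embryos), and quantile normalization again gave 8 and 20 (10 and 13). Centring shifted the median change of all clusters to -0.11, against 0.01 as deposited in DMSO embryos. The background share under these scalings is not given here. The added falls therefore cannot be told from a shift of all clusters. A minimum mean signal of 5 left 26 members and 7 rises in TDCIPP embryos.

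Small 6 hpf differences changed sign. With array 1 alone foxa1 had 0.11, foxa3 -0.069, foxc1a -0.21 and foxo3b 0.011, and with array 2 alone foxa2 had 0.20 and foxo6a -0.0079. foxo3b had 0.0071 with quantile normalization again and 0.0028 with centring. The DMSO change of foxa1 was 0.032 with array 2 alone. The 6 hpf difference of foxl3 was -0.21 with array 2 alone, and the 2 hpf difference of foxo1b was -0.19 with array 1 alone. With arrays 1 and 2 alone, the difference of effects was 0.76 and 0.24 in foxo6a and -0.69 and -0.094 in foxj1b. Uncalled DMSO changes moved to 0.0088 (foxc1b) and 0.026 (foxj1a) with quantile normalization again and to 0.012 and 0.017 with centring. Leaving out 1 pool moved the 6 hpf difference over -0.19 to 0.094 in foxa1, -0.10 to 0.13 in foxa2, -0.051 to 0.10 in foxa3, -0.24 to 0.16 in foxc1a, -0.024 to 0.084 in foxm1, -0.37 to 0.39 in foxo3b, -0.35 to -0.14 in foxd1 and -0.19 to 0.11 in foxr1, the 2 hpf difference over -0.39 to -0.16 in foxo1b and 0.15 to 0.35 in foxi2, and the DMSO change over -0.18 to 0.10 in foxa1 and -0.013 to 0.29 in foxj1a.

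The labels link same-numbered pools by a number alone and do not say what else they shared. The correlation of their deviations was 0.089 to 0.183 at 6 hpf (6 of 6 pools best with their own number) and 0.052 to 0.249 at 2 hpf (5 of 6). Pools of other numbers had -0.128 to 0.01 at 6 hpf and -0.223 to 0.081 at 2 hpf. Deviations were taken from each group's own mean, so positive values for same-numbered pools force lower values for the others. The pools counted are thus not independent of one another. Within a time point same-numbered pools tended to deviate together. Same-numbered pools had -0.01 to 0.098 between the DMSO stages (4 of 6) and -0.025 to 0.014 between the TDCIPP stages (0 of 6). With the replicate block the DMSO embryos had 10 rises and 14 falls among members and the TDCIPP embryos 11 and 13. No treatment comparison had a call among members (0), and the calls over all clusters under this block are not given here. The number of pools limits the precision. The cause of these shifts was not tested.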
